A study of Mus musculus with 12 samples.

Results

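Integrins are the cell surface receptors that tie a cell to its extracellular matrix. Here 10 of their subunit genes were followed through TGF-β1 treatment and knockdown of Pdcd5 in C22 cells, which the study used as mouse club cells. The 10 genes, Itgav, Itgb1, Itgb3, Itgb5, Itgb6, Itgb8, Itga2, Itga3, Itga5 and Itga11, were taken by gene symbol from the 23282 symbols counted. They encode the αv chain, the β chains that pair with it, and the α chains that join integrin β1 to form receptors for fibronectin, laminin and collagen. All 10 symbols were present, and 6 of them had enough reads to be tested among 12425 genes.

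The RNA came from C22 cells, a cloned line from the lung of mice carrying the H-2Kb-tsA58 transgene, which keeps cells dividing in the presence of interferon-γ and lets them differentiate once it is withdrawn. The cells used are described as differentiated, and the treatment protocol names a short serum starvation before TGF-β1. The sources do not say whether the untreated cells were starved in the same way, so the differences called TGF-β1 responses here may include starvation. The 4 groups of 3 libraries each were negative control cells left untreated (NC), negative control cells given TGF-β1 at 20 ng/ml over 24 h (written NC + TGF-β1), untreated cells in which PDCD5 was knocked down (siPdcd5) and such cells given the same TGF-β1 (siPdcd5 + TGF-β1). The sources do not say whether the 3 libraries of a group came from separate cultures, so p-values measure the spread between these libraries, which may be technical.

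The libraries read the 3′ ends of polyadenylated RNA and held 12809857 to 17714828 counted reads, so that 3 reads, taken as the floor of a library, correspond to 0.165 to 0.239 counts scaled to library size (CPM, the usual per-million unit). The targeted gene Pdcd5 fell by 1.69 on the log2 scale without TGF-β1 (adjusted p = 1.09e-06) and by 1.49 with it (adjusted p = 5.47e-06), and its mean level was 68.1 CPM in NC and 21.1 in siPdcd5 without TGF-β1, and 67.8 and 24.1 CPM with it. The defining markers of club cells were nearly absent: Scgb3a2, Cyp2f2, Cyp2a5 and Bpifa1 had 0 reads in all 12 libraries, Scgb1a1 had 1 read in 1 library, and Scgb3a1 had 0 to 5. These markers thus do not bear out the name club cell, which is the study's. Of the other marker lists, the alveolar list summed to 48.4 to 85.5 CPM per library, the immune list to 8.68 to 15.1 CPM with Cd3e at 0, the endothelial list to 0.585 to 2.47 CPM, and the ciliated or basal list to 0.076 to 0.537 CPM. Most of the alveolar sum was Aqp5 and Abca3. Sftpc had 2 reads in NC + TGF-β1 replicate 3 and 0 elsewhere, Sftpb 0 to 6 reads and Hopx 0 to 1.

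An integrin is a pair of an α and a β chain, each spanning the membrane, and its matrix specificity is set by the pair. The αv integrins and integrin α5β1 recognise the short RGD peptide of fibronectin, vitronectin and related proteins. The same RGD peptide lies in the latency peptide of TGF-β1, and αv integrins, foremost αvβ6 on epithelium and αvβ8, release the active cytokine from it by binding there, which is why these receptors are studied in lung fibrosis. Inside the cell the β chains bind talin and kindlin, which link them to actin at focal adhesions.

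Among the 6 tested members, Itgb5 and Itgb3, both β chains of αv, had the largest responses to TGF-β1. Itgb5, which pairs with αv alone in a vitronectin receptor, lies on chromosome 16 of GRCm38 (33829665 to 33949338, plus strand). It was measured at 150.3, 144 and 144 CPM in NC and at 466, 554 and 429 CPM in NC + TGF-β1. In the knockdown cells it was measured at 127, 105 and 112 CPM without and at 409, 378 and 370 CPM with TGF-β1. Every treated library stood far above every untreated one, and within each treatment every knockdown library lay below every NC library. Itgb5 rose 3.30-fold in NC cells (log2 1.72 ± 0.11 SE, n = 3 per group, adjusted p = 6.39e-08) and 3.37-fold in siPdcd5 cells (log2 1.75 ± 0.11, adjusted p = 5.99e-08).

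Itgb3, the other vitronectin-receptor β chain of αv, known from platelets and osteoclasts, lies on chromosome 11 (104608000 to 104670476, plus strand). Its level was 14.4, 16.3 and 12.2 CPM in NC and 46.7, 38.8 and 55.9 CPM in NC + TGF-β1. In siPdcd5 it was 14.7, 13.7 and 18.3 CPM, and in siPdcd5 + TGF-β1 36.9, 38.4 and 44.8 CPM. Treated and untreated libraries did not overlap in either cell state, while NC and siPdcd5 libraries overlapped within each treatment. Itgb3 rose 3.29-fold in NC cells (log2 1.72 ± 0.16, adjusted p = 3.55e-06) and 2.57-fold in siPdcd5 cells (log2 1.36 ± 0.16, adjusted p = 3.17e-05).

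Itgb1, the shared β chain of the collagen, laminin and fibronectin receptors, is on chromosome 8 (128685654 to 128733200, plus strand). It stood at 934, 878 and 896 CPM in NC and at 1392, 1532 and 1413 CPM in NC + TGF-β1. The knockdown cells had 822, 734 and 749 CPM without and 1231, 1214 and 1186 CPM with TGF-β1. As for Itgb5, the 4 groups formed an order with no overlap between neighbours: siPdcd5 lowest, then NC, siPdcd5 + TGF-β1 and NC + TGF-β1. Itgb1 rose 1.60-fold in NC cells (log2 0.68 ± 0.08, adjusted p = 3.24e-05) and 1.58-fold in siPdcd5 cells (log2 0.66 ± 0.08, adjusted p = 4.88e-05).

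**Figure D1:**
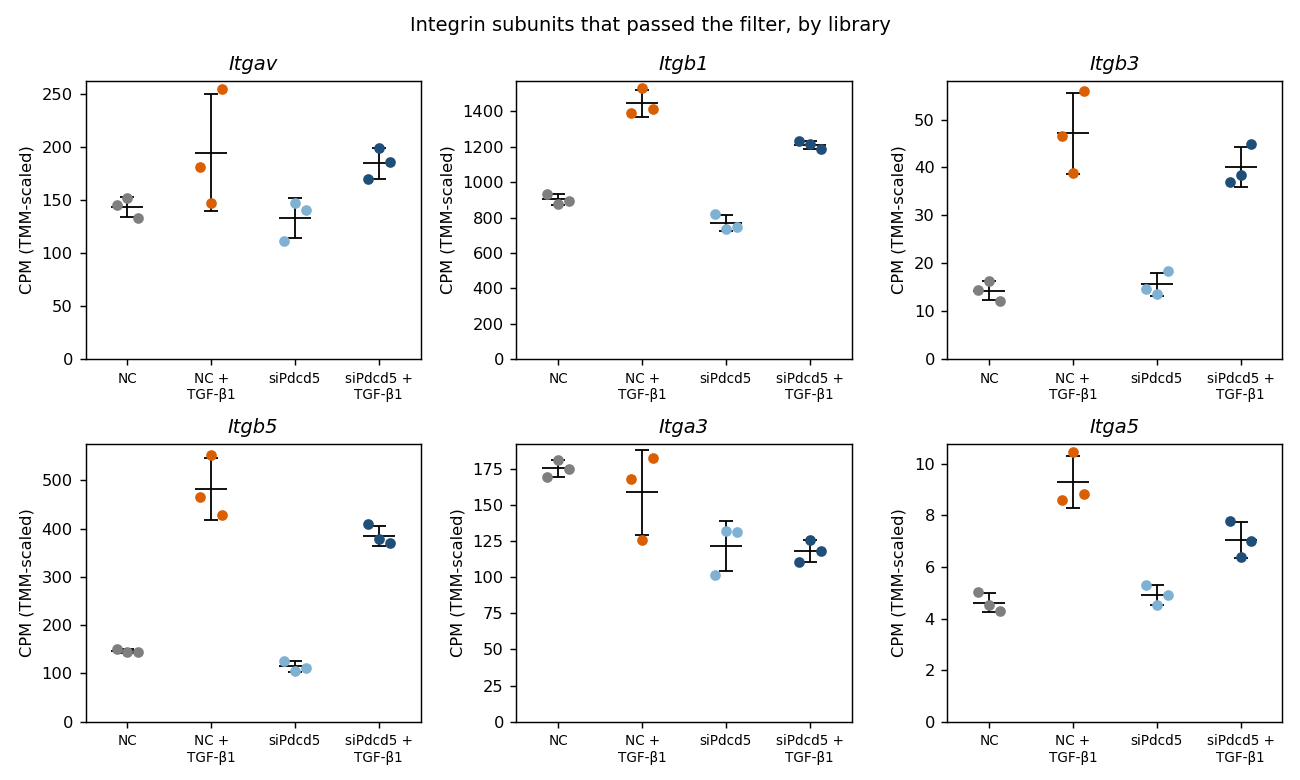
Levels of the 6 tested integrin subunits in CPM (TMM-scaled, vertical axis from 0) in each of the 12 libraries, by group; points are libraries, the long bar is the mean and the short bars 1 SD (n = 3). Itgb1, Itgb3, Itgb5 and Itga5 lie higher in every treated library than in every untreated one, whereas Itga3 lies between 102 and 182 CPM in all groups.

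The 250 bases before the annotated start of Itgb1 and Itgb5 are shown because these 2 subunits moved most alike of all member pairs, with a Pearson r of 0.985 between their log2 CPM over the 12 libraries. The sequences are RefSeq's for GRCm38.p6, chr8:128685404-128685653 and chr16:33829415-33829664, both on the plus strand and written 5′ to 3′. Capitals mark CAGAC or its reverse complement GTCTG, the letters of a SMAD binding element.
Itgb1: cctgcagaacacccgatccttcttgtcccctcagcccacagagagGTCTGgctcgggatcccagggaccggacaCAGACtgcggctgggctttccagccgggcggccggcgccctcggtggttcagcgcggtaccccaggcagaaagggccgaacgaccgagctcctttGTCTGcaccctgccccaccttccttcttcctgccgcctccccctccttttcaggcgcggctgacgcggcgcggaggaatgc
Itgb5: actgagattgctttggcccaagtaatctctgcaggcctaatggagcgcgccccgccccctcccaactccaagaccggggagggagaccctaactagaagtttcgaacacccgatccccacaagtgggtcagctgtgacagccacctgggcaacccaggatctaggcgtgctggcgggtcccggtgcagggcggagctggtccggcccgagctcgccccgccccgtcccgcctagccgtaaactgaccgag
The Itgb1 window held 3 such matches and the Itgb5 window 0. On either strand they were found in 5 of the 11 windows listed for 9 of the 10 members, and in 42.2% of 32851 mouse promoter windows of the same length. The AP-1 letters TGANTCA were in 0 of the 11 windows (6.75% of all windows), and the Sp1 letters GGGCGG or CCGCCC in 5 of the 11 (32.7% of all windows), with 1 match for Itgb1 and 3 for Itgb5. Itgb3 has no window in the table.

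Itgav, the α chain that all of these αv pairs share, had a smaller and more scattered response. The gene lies on chromosome 2 (83724397 to 83806916, plus strand), and exons of Gm13684 overlap it on the other strand, so reads of the pair could be mixed. Its level was 145, 152 and 133 CPM in NC and 181, 147 and 255 CPM in NC + TGF-β1. In the knockdown cells it was 112, 147 and 141 CPM without and 169, 199 and 186 CPM with TGF-β1. The NC groups overlapped through replicate 2 of NC + TGF-β1, whereas the siPdcd5 groups did not overlap. The log2 difference was 0.44 ± 0.16 in NC cells (adjusted p = 0.0927) and 0.47 ± 0.16 in siPdcd5 cells (adjusted p = 0.0666). Neither passed the threshold of 0.05 over all genes, and without that 1 library both did, at 0.60 (adjusted p = 0.00408) and 0.47 (adjusted p = 0.0104). Without replicate 3 of the same group the siPdcd5 value passed too, as it did by DESeq2 (adjusted p = 0.0384). The siPdcd5 value passed in 5 of 19 alternatives (adjusted p from 0.0104 to 0.198). The NC value passed in 1 of 19 (adjusted p from 0.00408 to 0.373).

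Itga5, the α chain of the classical fibronectin receptor, lies on chromosome 15 (103344286 to 103366763, minus strand) and was the least abundant of the 6 tested genes in reads. It had 66, 61 and 56 reads in NC and 108, 140 and 121 in NC + TGF-β1, or 4.61 ± 0.368 CPM against 9.30 ± 1.01 CPM (mean ± SD, n = 3). In siPdcd5 it had 72, 82 and 76 reads and in siPdcd5 + TGF-β1 116, 83 and 104 reads, or 4.91 ± 0.397 CPM against 7.06 ± 0.694 CPM. In CPM, treated libraries lay above untreated ones in both cell states, and every siPdcd5 + TGF-β1 library lay below every NC + TGF-β1 library. Itga5 rose 2.01-fold in NC cells (log2 1.01 ± 0.16, adjusted p = 0.00054) and 1.44-fold in siPdcd5 cells (log2 0.53 ± 0.16, adjusted p = 0.0394). The latter call held in 8 of 19 alternative analyses, with adjusted p from 0.0147 to 0.154. It was lost with upper-quartile scaling (0.0548), without a filter on low counts (0.0795), with only the 6 libraries compared (0.0663), and without replicate 2 of NC or any single library of siPdcd5 (0.053, 0.122 and 0.0929 for replicates 1 to 3) or of siPdcd5 + TGF-β1 (0.154, 0.0543 and 0.0921).

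Itga3, the α chain of the laminin receptor α3β1 of epithelia, showed no detectable response to TGF-β1. It is encoded on chromosome 11 (95044474 to 95076801, minus strand). Its level was 169.6, 181 and 175 CPM in NC and 168, 126 and 182 CPM in NC + TGF-β1. The knockdown cells had 102, 132 and 131 CPM without and 111, 126 and 119 CPM with TGF-β1. The treated and untreated libraries overlapped in both cell states, and the untreated siPdcd5 libraries all lay below the NC ones. The log2 difference with TGF-β1 was −0.14 in NC cells (95% interval −0.42 to 0.14, adjusted p = 0.545) and −0.04 in siPdcd5 cells (−0.32 to 0.24, adjusted p = 0.874).

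The other 4 subunits were at or near the floor in these cells. Itgb6, whose αvβ6 pair activates TGF-β on injured epithelium, had 2 reads in replicate 3 of NC and 0 in the other 11 libraries. Itgb8, the β chain of the second main activator, had 5, 3 and 0 reads in untreated NC cells and 0, 0 and 2 in treated ones, and siPdcd5 cells had 1, 3 and 11 without and 2, 1 and 2 with TGF-β1. Both were too sparse for a difference between groups to be detectable at this depth, and with no filter on low counts the smallest adjusted p of either in the 4 group comparisons was 0.536.

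Of the collagen receptor chains, Itga2 had 0 reads in all 12 libraries, which allows up to 0.165 to 0.239 CPM per library for counting error alone. Itga11, the fibroblast collagen receptor chain, had 8, 1 and 2 reads in untreated NC cells and 8, 10 and 4 in treated ones, and siPdcd5 cells had 5, 0 and 4 without and 2, 10 and 1 with TGF-β1. Its groups overlapped in all comparisons, and its smallest adjusted p without the filter was 0.662. The genes of these 4 chains lie on chromosome 2 (Itgb6, 60598292 to 60722643, minus strand), chromosome 12 (Itgb8, 119158022 to 119238802, minus strand), chromosome 13 (Itga2, 114833081 to 114932100, minus strand) and chromosome 9 (Itga11, 62677826 to 62783982, plus strand).

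**Figure D2:**
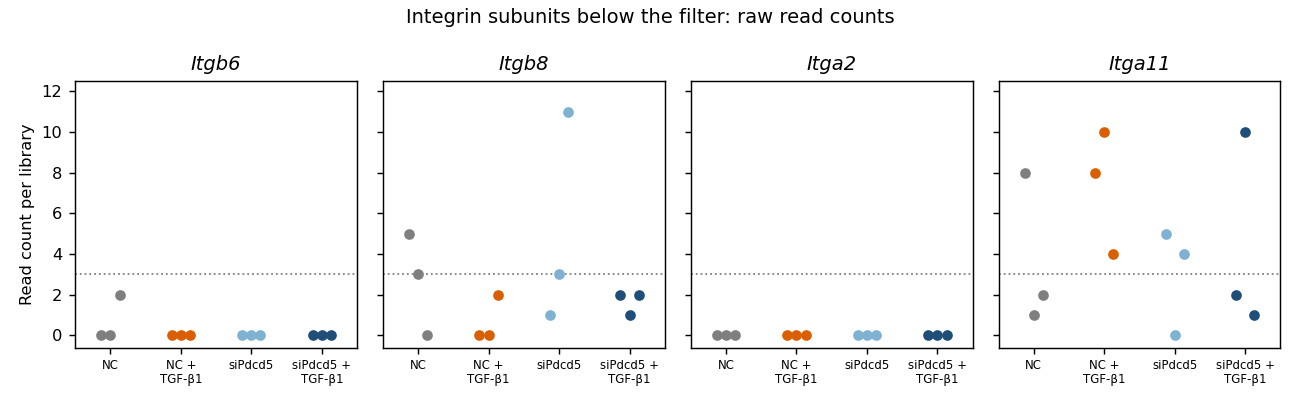
Raw read counts (vertical axis, not scaled) of the 4 integrin subunits that did not pass the filter, 1 point per library, by group; the dotted line marks 3 reads. Itga2 is at 0 throughout, Itgb6 has reads in 1 library, and Itgb8 and Itga11 reach at most 11 and 10 reads.

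In numbers, 4 of the 6 tested members rose with TGF-β1 in NC cells and 0 fell, against 15.3% of all 12425 genes called in either direction, and the libraries of 4 members did not overlap, against 29.6% of all genes. In siPdcd5 cells 4 of 6 rose and 0 fell, against 16.1% called, and 5 did not overlap, against 36.1%. The median log2 difference of the 6 was 0.85 in NC cells and 0.59 in siPdcd5 cells, and that of all genes tested was 0.005 and −0.03. A member that passed the filter only because it was high in 1 group had to differ, but 5 of the 6 had at least 159 reads in every library and Itga5 had at least 56. The calls for Itgb1, Itgb3 and Itgb5 in both cell states, and for Itga5 in NC cells, held in 19 of 19 alternatives each.

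Without TGF-β1, Itga3 fell 0.53 ± 0.13 on the log2 scale to 0.694 of its NC level (adjusted p = 0.0424), and it was the only 1 of the 6 called, against 3.44% of all genes. This call held in 8 of 19 alternatives, with adjusted p from 0.00369 to 0.161. It was lost in 10 of the 12 analyses that left out 1 library, the exceptions being replicates 2 and 3 of NC + TGF-β1, and the adjusted p was 0.109, 0.161 and 0.123 without NC replicate 1, 2 or 3, 0.0586 without NC + TGF-β1 replicate 1, 0.115, 0.0616 and 0.0812 without siPdcd5 replicate 1, 2 or 3, and 0.0647, 0.0631 and 0.0701 without siPdcd5 + TGF-β1 replicate 1, 2 or 3.

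Itgb5 and Itgb1 had knockdown libraries entirely below their NC libraries without passing the test. The log2 difference of Itgb5 was −0.35 ± 0.10 (unadjusted p = 0.00421 and adjusted p = 0.0879 by edgeR), and that of Itgb1 was −0.23 ± 0.08 (0.012 and 0.155). By DESeq2 both passed, at adjusted p = 0.025 and 0.0197. With Itga3 these are the 3 of 6 members without overlap, where 23.1% of all genes had none. Itgav had a log2 difference of −0.11, Itgb3 of 0.12 and Itga5 of 0.09, all within overlapping libraries.

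With TGF-β1 present, the log2 difference of siPdcd5 + TGF-β1 from NC + TGF-β1 was negative for all 6 members. That of Itgav became 0.17 without replicate 3 of NC + TGF-β1. Of the 6 members 0 passed the test, against 1.55% of all genes. The log2 difference was −0.42 ± 0.13 for Itga3 (adjusted p = 0.144), −0.40 ± 0.16 for Itga5 (0.271), −0.32 ± 0.10 for Itgb5 (0.151), −0.26 ± 0.08 for Itgb1 (0.149), −0.23 ± 0.15 for Itgb3 (0.551) and −0.08 ± 0.16 for Itgav (0.896). For 4 of them the unadjusted p was under 0.05, as for 1711 of the 12425 genes, and Itgb1, Itgb5 and Itga5 had no overlap between groups, against 18.9% of all genes. DESeq2 called 1 of them, Itgb1 (adjusted p = 0.0147). Without replicate 2 of NC + TGF-β1, Itga3 passed instead, at −0.57 (adjusted p = 0.00908). The median of the 6 was −0.29, and that of all genes tested −0.02. The 2 knockdown comparisons share no library with each other, but each shares a group with both comparisons of TGF-β1.

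**Figure D3:**
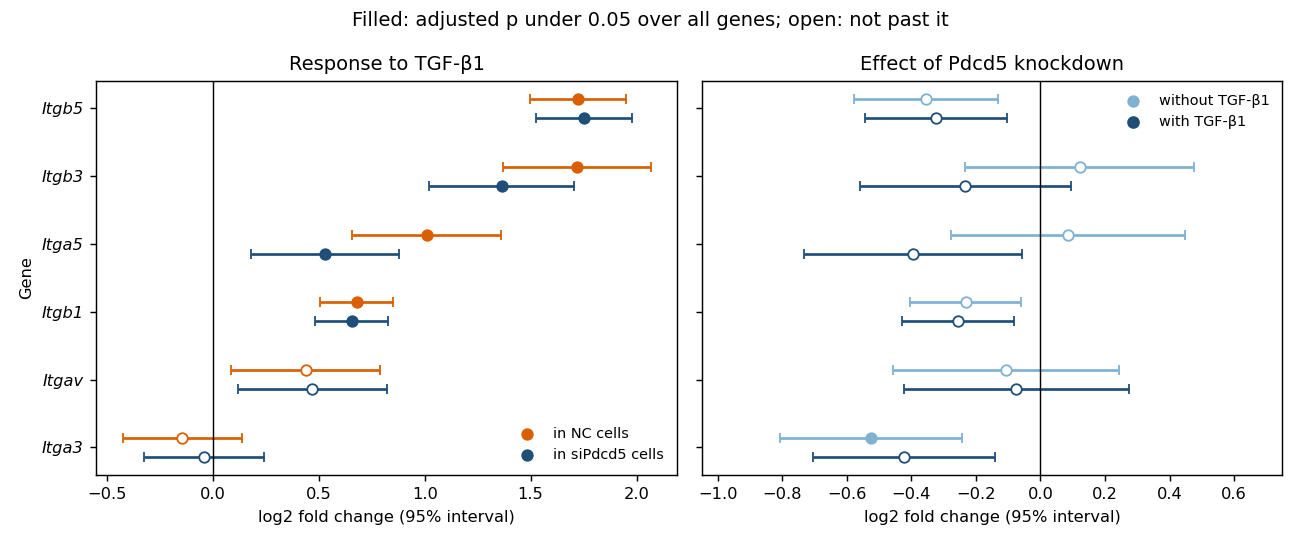
Log2 fold changes with 95% intervals (horizontal axes) of the 6 tested subunits, for TGF-β1 against untreated cells on the left and siPdcd5 against NC on the right; filled points have an adjusted p under 0.05 over all 12425 genes. Itgb5 and Itgb3 lie farthest to the right in both cell states, and Itga3 without TGF-β1 is the only filled point on the right.

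Whether knockdown altered the response to TGF-β1 was tested directly, as the difference between the 2 responses. None of the 6 members passed, 0 of them had an unadjusted p under 0.05, and of all 12425 genes 0 passed by edgeR (0%), 638 had an unadjusted p under 0.05 and DESeq2 called 15, of which 0 were members. The largest difference was that of Itga5, −0.48 with a 95% interval of −0.98 to 0.01 and an adjusted p of 0.951, so that its smaller rise in the knockdown cells is not shown to differ from that in NC cells. The interval was −0.84 to 0.13 for Itgb3 around −0.35, −0.46 to 0.53 for Itgav around 0.03, −0.27 to 0.22 for Itgb1 around −0.02, −0.28 to 0.34 for Itgb5 around 0.03 and −0.30 to 0.50 for Itga3 around 0.10.

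Ratios of 2 chains within a library do not depend on how libraries are scaled, and they show how unequally partner chains moved. The ratios were chosen after their values were seen, and 5 were computed in 4 comparisons each. The ratio of Itgb5 to Itgav reads was 1.03, 0.947 and 1.08 in NC and 2.57, 3.76 and 1.68 in NC + TGF-β1, a 2.48-fold higher ratio. In the knockdown cells it went from 1.13, 0.712 and 0.796 to 2.42, 1.90 and 1.99, or 2.42-fold. The Itgb3 to Itgav ratio was 2.48-fold higher with TGF-β1 in NC cells and 1.86-fold higher in siPdcd5 cells. All of these groups were separate, with a two-sided exact permutation p of 0.1, the smallest that 3 libraries against 3 allow, so that no ratio can reach 0.05. Itgb1 to Itgav overlapped in both cell states, with an exact permutation p of 0.5 in each.

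Among the partners of Itgb1, the Itga3 to Itgb1 ratio fell from 0.182, 0.206 and 0.195 in NC to 0.121, 0.0822 and 0.129 in NC + TGF-β1, which is 0.559 of the untreated ratio. In siPdcd5 cells it was 0.124, 0.180 and 0.176 without and 0.0898, 0.104 and 0.0999 with TGF-β1, or 0.620 of the untreated ratio. The Itga5 to Itgb1 ratio was 1.26-fold higher with TGF-β1 in NC cells with no overlap (exact permutation p = 0.1), and 0.911 of the untreated ratio in siPdcd5 cells with overlap (exact permutation p = 0.2). That untreated siPdcd5 ratio was itself 1.25-fold the NC ratio, with no overlap (exact permutation p = 0.1). Likewise Itga3 to Itgb1 in untreated siPdcd5 cells was 0.810 of NC with no overlap (exact permutation p = 0.1). In all other knockdown comparisons of the ratios the groups overlapped. A ratio shows that 2 chains changed unequally and not that either stayed the same.

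**Figure D4:**
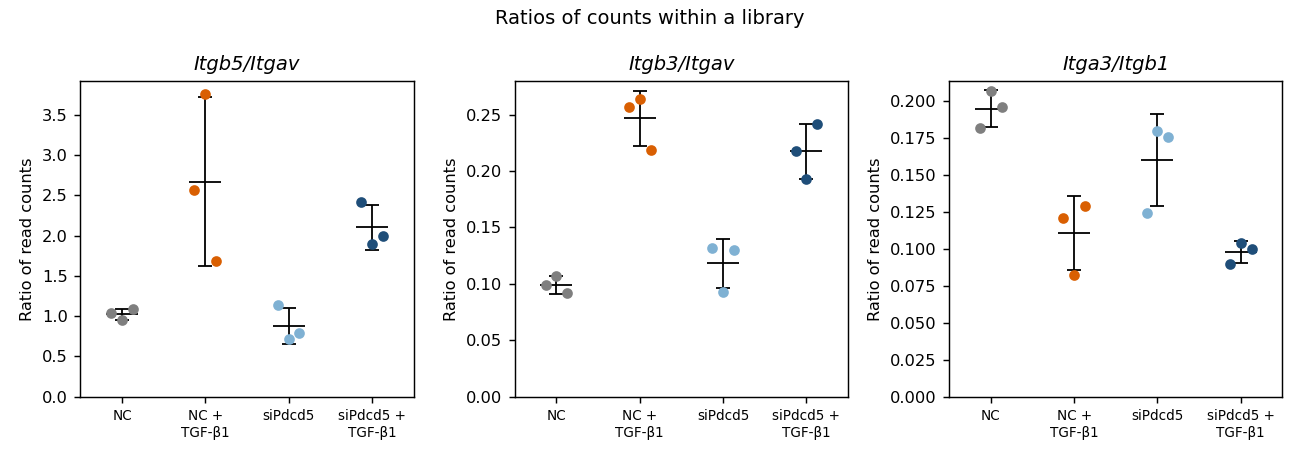
Ratios of read counts of 2 integrin chains within each library (vertical axes from 0), by group; points are libraries, the long bar is the mean and the short bars 1 SD (n = 3). Itgb5/Itgav and Itgb3/Itgav are higher in all treated libraries, and Itga3/Itgb1 is lower in treated than in untreated libraries of the same cell state.

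Over the 12 libraries, the log2 CPM of Itgb1, Itgb3, Itgb5 and Itga5 correlated with each other at a Pearson r of 0.899 to 0.985, those of Itgav with these 4 at 0.572 to 0.81, and those of Itga3 with the other 5 at −0.142 to 0.304. These values describe libraries that share groups and treatments, so that any pair of genes moved by TGF-β1 correlates. The gene most like Itgb5 of 9123 considered was Wisp1, a secreted CCN family protein (r = 0.999). Rtn4, a protein that shapes the endoplasmic reticulum, was most like Itgb1 (r = 0.995), and Pvr, an adhesion receptor of the nectin-like family, was most like Itgb3 (r = 0.983). Magt1 was most like Itgav (r = 0.974), Ttyh2 most like Itga5 (r = 0.972) and Arid4b most like Itga3 (r = 0.958).

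Of the other 17 integrin subunits in the lists, 7 could be tested, and none of them was called higher in any comparison. With TGF-β1, 1 was called lower in NC cells and 2 in siPdcd5 cells, against 15.3% and 16.1% of all genes called. Knockdown lowered 1 in untreated cells and 0 in treated cells, against 3.44% and 1.55%. Itga10, a collagen receptor α chain of cartilage, fell with TGF-β1 by 0.42 ± 0.10 on the log2 scale in NC cells (adjusted p = 0.00947) and by 0.62 ± 0.10 in siPdcd5 cells (adjusted p = 6e-04), from means of 229 and 203 CPM to 171 and 132 CPM. Itga10 shares exons with Gm42957 on the same strand, and its reads are uncertain to that extent. Itgb7, a β chain of lymphocyte homing receptors, fell with TGF-β1 by 2.01 ± 0.34 in siPdcd5 cells (adjusted p = 0.00076), from 40, 57 and 47 reads to 10, 10 and 12, while in NC cells the difference was −0.60 (adjusted p = 0.269) and the test of the difference between the responses gave an adjusted p of 0.911. Itga1, the α chain of a collagen IV receptor, fell by 1.66 ± 0.38 with knockdown in untreated cells (adjusted p = 0.0273), from 33, 60 and 76 reads to 19, 17 and 27, and it shares exons with Gm49395. The Itga1 call was lost without NC replicate 2 (adjusted p = 0.105) or 3 (0.14) and without siPdcd5 replicate 1 (0.0607), 2 (0.107) or 3 (0.0578). Itga6, the laminin receptor chain, had a log2 difference with TGF-β1 of 0.27 in NC cells (adjusted p = 0.26).

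Most tested genes in the list of RGD ligands and latent TGF-β proteins rose with TGF-β1. Not all of them are integrin ligands: Ltbp1, Ltbp3 and Lrrc32 are listed as partners of latent TGF-β, and each rose in NC cells. Of the 17 listed, 12 were tested, of which 9 rose and 2 fell in NC cells, with a median log2 difference of 0.78, and 8 rose and 2 fell in siPdcd5 cells. Of all genes, 15.3% and 16.1% were called in either direction. Postn, the matricellular protein periostin bound by αv integrins, rose by 4.59 ± 0.18 on the log2 scale in NC cells (adjusted p = 1.5e-09). Lrrc32, which holds latent TGF-β at the cell surface, rose by 2.99 ± 0.55 (adjusted p = 0.00153) from only 1 to 4 reads in NC to 21 to 24 in NC + TGF-β1. Spp1, the RGD protein osteopontin, fell by 1.19 ± 0.12 (adjusted p = 5.58e-06) and Tgfb3 by 0.97 ± 0.12 (adjusted p = 5.63e-05), and Tgfb1 itself had 1 to 15 reads per library and was not tested. Knockdown lowered 2 of the 12 in untreated and 2 in TGF-β1-treated cells, against 3.44% and 1.55% of all genes called. In the untreated cells Tnc, the matricellular tenascin C, fell by 1.21 ± 0.13 (adjusted p = 0.000142). Fbn1 fell there by 0.85 ± 0.14 (adjusted p = 0.00293). In the treated cells Tnc fell by 0.86 ± 0.12 (adjusted p = 0.00163) and Postn by 0.75 ± 0.14 (adjusted p = 0.0161). For Tnc the test of the difference between the TGF-β1 responses gave an adjusted p of 0.951. The Postn call was lost without replicate 1 (adjusted p = 0.0521), 2 (0.116) or 3 (0.0739) of siPdcd5 + TGF-β1, and under 2 other alternatives, quantile normalization (0.0569) and only the 6 libraries compared (0.0615).

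Of 15 tested collagen and laminin chains, the ligands of the β1 integrins, 11 rose and 2 fell with TGF-β1 in NC cells and 10 rose and 2 fell in siPdcd5 cells. The share of all genes called in either direction was 15.3% and 16.1%. Lamb3, the β chain of laminin-332, rose by 3.55 ± 0.12 (adjusted p = 4.91e-10) in NC cells. Lama3, the α chain of the same laminin, had 2 reads in siPdcd5 replicate 1 and 0 in every other library, and was not tested. Col1a2, a chain of type I collagen, rose by 2.78 ± 0.22 (adjusted p = 6.15e-07). Col6a1 fell by 0.60 ± 0.17 (adjusted p = 0.0236) and Col6a2 by 0.56 ± 0.10 (adjusted p = 0.000988). Knockdown raised 1 and lowered 6 of the 15 in untreated cells, against 3.44% of all genes called. In treated cells it lowered 5 and raised 0, against 1.55% of all genes called. Among the 5 were Col5a2, lower by 0.82 ± 0.13 (adjusted p = 0.00525), and Lamc1, lower by 0.54 ± 0.12 (adjusted p = 0.0492). With only the 6 libraries compared the list had 0 calls. Of the analyses that left out 1 library, the count with TGF-β1 was 1 without any replicate of siPdcd5 + TGF-β1, 2 without NC replicate 3 or NC + TGF-β1 replicate 3, and 3 without NC replicate 1 or 2, NC + TGF-β1 replicate 1 or siPdcd5 replicate 3, and the highest was 7. The Lamc1 call held in 4 of 19 alternatives, and of those leaving out 1 library only without NC + TGF-β1 replicate 1 or siPdcd5 replicate 1 (adjusted p up to 0.229 in the others). In untreated cells the 7 calls became 4 without NC replicate 2 or 3. The Col6a1 call was lost without NC replicate 2 (adjusted p = 0.0726) or 3 (0.096) or NC + TGF-β1 replicate 1 (0.079).

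Inside the cell, 7 of 28 tested focal adhesion adaptors rose and 1 fell with TGF-β1 in NC cells, with a median log2 difference of 0.08, and 5 rose and 1 fell in siPdcd5 cells. Over all genes, 15.3% and 16.1% were called in either direction. Tln2, a talin that switches integrins on, rose by 1.09 ± 0.12 (adjusted p = 1.06e-05), Actn1, an actin cross-linker at focal adhesions, rose by 0.79 ± 0.10 (adjusted p = 5.96e-05), and Dab2, an endocytic adaptor of integrins, fell by 1.37 ± 0.08 (adjusted p = 5.88e-08). Knockdown lowered 4 of the 28 in untreated cells and 0 in treated cells, against 3.44% and 1.55% of all genes called. In treated cells DESeq2 called 3 of the list, and of all 12425 genes 129 higher and 330 lower. When 1 library was left out, the 4 became 1 (NC replicate 2 or 3), 2 (siPdcd5 replicate 1 or 3, siPdcd5 + TGF-β1 replicate 1 or 3) or 7 (NC + TGF-β1 replicate 2), and the 0 became 1 (NC + TGF-β1 replicate 2 or 3) or 2 (siPdcd5 replicate 1). Of 9 membrane partners, 2 rose and 1 fell with TGF-β1 in NC cells, against 15.3% of all genes called. Slc3a2, the heavy chain of an amino acid transporter that binds β1 tails, rose by 0.91 ± 0.20 (adjusted p = 0.00616). Its level was 214, 211 and 221 CPM in NC and 324, 570 and 320 CPM in NC + TGF-β1, highest in replicate 2. The Slc3a2 call held in 19 of 19 alternatives. The tetraspanin Cd63 rose by 0.35 ± 0.09 (adjusted p = 0.0147), and Cav1, the caveolin, fell by 0.94 ± 0.13 (adjusted p = 0.000135). In siPdcd5 cells 1 rose and 1 fell, against 16.1% of all genes called. With knockdown 3.44% of all genes were called in untreated cells and 1.55% in treated cells. It lowered 1 of the 9, Cav1, in untreated cells and in treated cells, by 0.56 ± 0.13 in the latter (adjusted p = 0.0492). The latter call held in 5 of 19 alternatives, and of those leaving out 1 library only without NC + TGF-β1 replicate 3, siPdcd5 replicate 1 or siPdcd5 + TGF-β1 replicate 1 (adjusted p up to 0.229 in the others). The Cd63 call was lost with quantile normalization (adjusted p = 0.409), with only the 6 libraries compared (0.0662), and without NC replicate 2 (0.0891) or NC + TGF-β1 replicate 1 (0.0663).

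**Figure D5:**
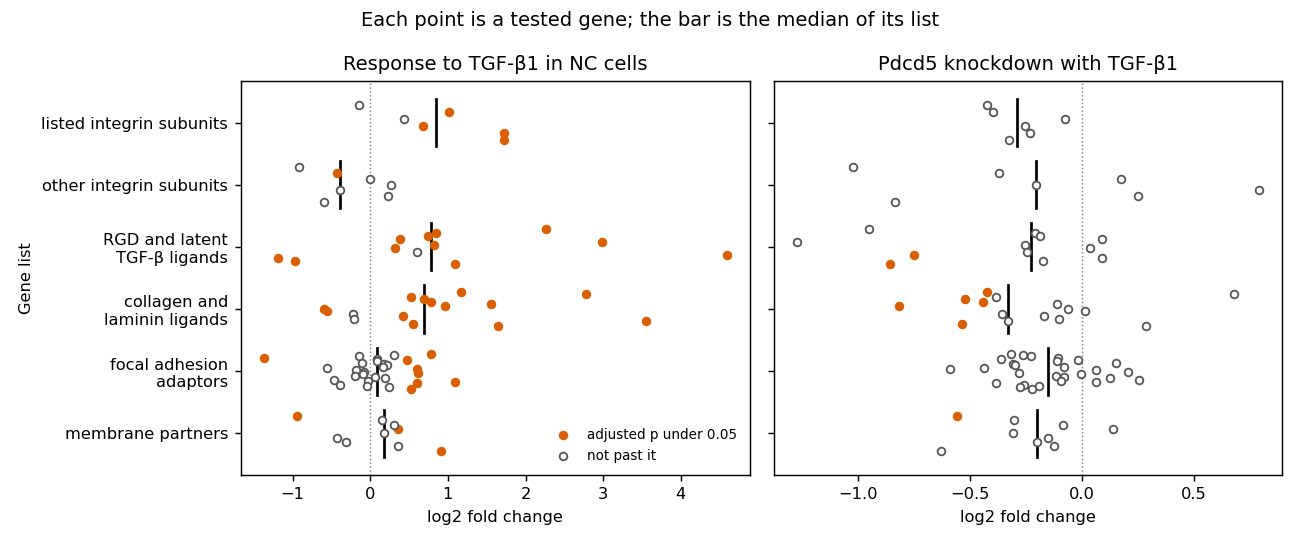
Log2 fold changes of every tested gene (points, horizontal axes) in 6 gene lists, with the median of each list as a bar; the left panel is NC + TGF-β1 against NC, the right panel siPdcd5 + TGF-β1 against NC + TGF-β1, and filled points have an adjusted p under 0.05. The listed integrin subunits, the RGD and latent TGF-β list and the collagens and laminins have medians of 0.85, 0.78 and 0.69 on the left, and no integrin subunit is filled on the right.

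Markers of fibroblasts did not move as a group, although their sum followed the groups. The list of 9, of which 7 were tested and none was at 0 throughout, summed to 3772 to 4019 CPM in untreated and 7454 to 8075 CPM in treated NC cells, and to 2574 to 3154 CPM and 5619 to 5980 CPM in the matching siPdcd5 cells, the order seen for Itgb1 and Itgb5, and most of the sum was Col1a1. With TGF-β1 in NC cells 4 of the 7 rose and 1 fell, that being Dcn, by 2.08 on the log2 scale (adjusted p = 6.47e-09). Among those that rose were Col1a1, Col1a2 and Col3a1, which were also counted in the collagen and laminin list. Of all genes, 15.3% were called in this comparison. Knockdown raised 2 of the 7 and lowered 2 in untreated cells, against 3.44% of all genes called. In treated cells it raised 1 and lowered 1, against 1.55%. Single markers went against the order of the sum. Dcn had means of 95.7 CPM in NC and 144 CPM in siPdcd5 without TGF-β1 and of 22.6 and 41.5 CPM with it, and Col1a2 rose with knockdown in untreated cells by 1.74 on the log2 scale (adjusted p = 0.000633) and had means of 24.7 and 39.5 CPM with TGF-β1. Of the 8 epithelial markers 4 were tested, and their sum went from 676 to 699 CPM in NC to 1242 to 1678 in NC + TGF-β1 and from 549 to 700.0 CPM in siPdcd5 to 1586 to 1647 in siPdcd5 + TGF-β1, nearly all of it Krt8 and Krt18, whereas Epcam had 1 read in NC replicate 2 and 0 in the other 11 libraries. In bulk RNA fewer cells of a type and less RNA per cell cannot be told apart, and the part of these markers in the integrin changes was not tested.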

How the data were processed

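RNA of 12 C22 libraries was read with a QuantSeq 3′ kit. The authors aligned single-end reads with Bowtie2 and used Bedtools to count them per gene, reads with several alignments included, and the deposited values are whole-number read counts per gene symbol without normalization. The submitters' processing notes name mm10 and edgeR, and strand use is not given in the sources used here. Counts of overlapping or duplicated genes are therefore uncertain. The reads carry no molecular identifiers, so floors cover counting error only. The 12 files share 23282 symbols.

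Counts were analysed in R 4.3.3 with edgeR 4.0.16. Genes passing filterByExpr over the 12 libraries (12425) were scaled by TMM and fitted with 4 group means in the quasi-likelihood model, and Benjamini-Hochberg adjustment ran over all of them at a threshold of 0.05. CPM use TMM-scaled library sizes, log2 CPM a prior count of 2. TMM was used for the main analysis, and quantile normalization, which the study's methods name, was an alternative with limma 3.58.1. Other alternatives were upper-quartile factors, DESeq2 1.42.0, no filter, a minimum of 10 counts in each library, a fit of the 6 libraries compared alone, a replicate block and each library left out. The fit was tested on simulated data.

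The members and gene lists were chosen with earlier results of these data known. All members are named. Of each other list, the 2 called genes with the largest rises and falls are named for TGF-β1 in NC cells and for knockdown with TGF-β1, as are all other integrin subunits called, and the gene most correlated with each member (mean log2 CPM at least 3). Other genes were named after their values were seen. 1 gene of the adaptor list is not reported here and was left out of that list's counts. Gene positions are from the GENCODE annotation of GRCm38 and promoter windows from RefSeq.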

Additional observations from a re-analysis of the deposited data

How the results depend on the processing

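Of the members' log2 fold changes under alternatives, 513 kept direction and side of the threshold, 22 fell short of it, 11 passed it newly and 18 changed sign; the cause was not tested. The number of members called without TGF-β1 after knockdown, 1, was 3 by DESeq2 and 0 to 2 when each library was left out; that with TGF-β1, 0, was 1 by DESeq2 and 0 to 1 with libraries left out. Signs that changed belonged to values near 0: the difference of responses of Itgb1 was 0.003749 with quantile normalization, and with libraries left out the differences of responses ran from −0.1338 to 0.2707 (Itgav), −0.05405 to 0.04141 (Itgb1), −0.05386 to 0.141 (Itgb5) and −0.03989 to 0.2077 (Itga3), the TGF-β1 response of Itga3 in siPdcd5 cells from −0.1472 to 0.02094, and knockdown without TGF-β1 from −0.1856 to 0.0003735 (Itgav) and −0.01449 to 0.2269 (Itgb3), with TGF-β1 from −0.2412 to 0.1655 (Itgav). Genes called over all genes moved for knockdown without TGF-β1 from 427 to 714 by DESeq2 and to 167 to 667 with libraries left out, and with TGF-β1 from 192 to 459 by DESeq2, 44 with only the 6 libraries compared and 73 to 322 with libraries left out. Without replicate 2 of NC + TGF-β1 the difference of responses had 2 calls. Membrane partners called for TGF-β1 in siPdcd5 cells were 1 in place of 2 without siPdcd5 replicate 2 or any replicate of siPdcd5 + TGF-β1, and for knockdown without TGF-β1 2 in place of 1 without NC + TGF-β1 replicate 2 or 3. Other integrin subunits called for TGF-β1 in NC cells were 2 in place of 1 without NC replicate 1, and for knockdown with TGF-β1 1 in place of 0 without NC + TGF-β1 replicate 2. Depth limits the values of Itgb6, Itgb8, Itga2 and Itga11.

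The labels number the replicates 1 to 3 in each group without saying that a number marks a shared culture, and the deviations of same-numbered libraries correlated at −0.324 to 0.166, not all above 0.1, so the numbers were not taken as pairs. With the replicate block, 0 members were called for knockdown without TGF-β1 (Itga3 adjusted p = 0.0665), Itga5 in siPdcd5 cells had an adjusted p of 0.0633, and knockdown with TGF-β1 called 107 genes.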

Other observations

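Within NC + TGF-β1, replicate 2 had the lowest level of Itgav (147 against 181 and 255 CPM), Itga3 (126 against 168 and 182 CPM) and Itga10 (147 against 182 and 183 CPM), and also of the keratin Krt18 (807 against 1116 and 1151 CPM). The same library had the highest level of Itgb1 (1532 against 1392 and 1413 CPM), Itgb5 (554 against 466 and 429 CPM) and Itga5 (10.5 against 8.60 and 8.85 CPM). Without it, TGF-β1 calls over all genes in NC cells were 2554 in place of 1906, and 5 in place of 4 members were called in NC cells and in siPdcd5 cells, Itgav being the added member. The library was singled out after its values were seen, and what sets it apart was not tested.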
